A study of Mus musculus with 2 samples.

Results

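Microglia, the resident macrophages of the brain, and the complement system were followed through 35 genes in the cortex of P4H-TM KO mice and WT mice. The genes were listed by name, from general knowledge of these cells and with earlier results of these data known. A gene counted as measured when at least 1 probe set, the group of oligonucleotides that reads 1 transcript, was annotated to that gene alone, and its value came from the brightest such probe set, by the mean of both arrays. On this basis 33 of the 35 genes were measured, out of 18193 genes on the arrays. C4b was left out because its probe set is also annotated to C4a, and C3 was not analysed here.

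The P4H-TM KO mice lack the transmembrane prolyl 4-hydroxylase, an enzyme of the endoplasmic reticulum membrane encoded by P4htm, and which part of the gene is disrupted is not given in the sources used here. Cortical tissue came from naive males of P4H-TM KO and from WT littermates, labelled C57BL/6J and 2.5 months old. Equal numbers of animals per genotype, 4 each, were combined before hybridization, so that each genotype is represented by 1 Affymetrix array. The question of the experiment was which transcripts differ in the cortex without the enzyme. Values are log2 expression, and a difference is P4H-TM KO minus WT. A single array on each side leaves the variation between mice unmeasured, so no p-value, SD or SE between animals is given.

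Microglia survey the tissue through receptors for nucleotides and chemokines, depend on the CSF1 receptor for survival and on the transcription factor PU.1 for their identity, and take up debris and synaptic material. The complement component C1q, made in the brain mainly by microglia, tags such material. Microglia at rest show little MHC class II, which macrophages at the vessels and brain borders carry at higher levels.

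P4htm itself had 9.10 in P4H-TM KO and 11.05 in WT on its brighter probe set, and 8.07 in P4H-TM KO and 9.71 in WT on the other. All 8 genes that mark homeostatic microglia had a signal over 6.385, the median of all probe sets, on both arrays. Genes that reach this level as a mean of both arrays are called bright here. Such a gene can lie below it on 1 array, as Mrc1 did in WT. Of the 33 genes, 26 were bright. The other 7, Itgam, Itgb2, Spi1, C3ar1, H2-Aa, H2-Ab1 and Cd163, were dim.

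Across the 33 genes the expression of P4H-TM KO and WT cortex was close. The median difference was −0.01, against 0 over all genes, and the differences lay between −0.18 for Cd74 and 0.26 for Mrc1. No gene was 1.5-fold higher or lower in P4H-TM KO, where 0.610% of all genes were at least 1.5-fold higher and 0.148% at least 1.5-fold lower, so that 0 is close to the background. None reached 1.2-fold either, a log2 difference of 0.263, compared with 4.12% of all genes higher and 4.91% lower by that much. Mrc1, at 0.26 from values rounded to 2 decimals, was at the edge of this threshold. With the intensity trend removed it had 0.2841, past 1.2-fold. Among all bright genes, 4.73% were 1.2-fold apart. In direction, 16 of the 33 were higher and 17 lower in P4H-TM KO, or 48.5% and 51.5%, against 46.0% higher and 49.0% lower over all genes.

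At 1.1-fold, a threshold chosen after the values were seen, 5 genes were higher (Mrc1, Itgam, Ptprc, Cd68 and H2-Aa) and 2 lower (Cd74 and Ctss). This is 21.2% of the 33, where 29.9% of all genes were 1.1-fold apart. Among bright genes the shares were 19.2% of the 26 and 20.7% of all. A yardstick within these arrays is the spread between probe sets of the same gene, whose differences had a pooled SD of 0.147 over 9010 genes, and of 0.101 over 5101 genes when only bright probe sets were used. Of the 33 genes, 27 had a difference within 0.147, or 81.8%, against 72.8% of all genes. Among bright genes the gap was smaller, with 22 of the 26 against 81.6% of all. That spread lies between probe sets on the same arrays, which may read different transcripts of a gene. It is no measure of the error of an array and says nothing of the variation between mice. In tissue of mixed cells, fewer cells of a type and less RNA per cell cannot be told apart.

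**Figure D1:**
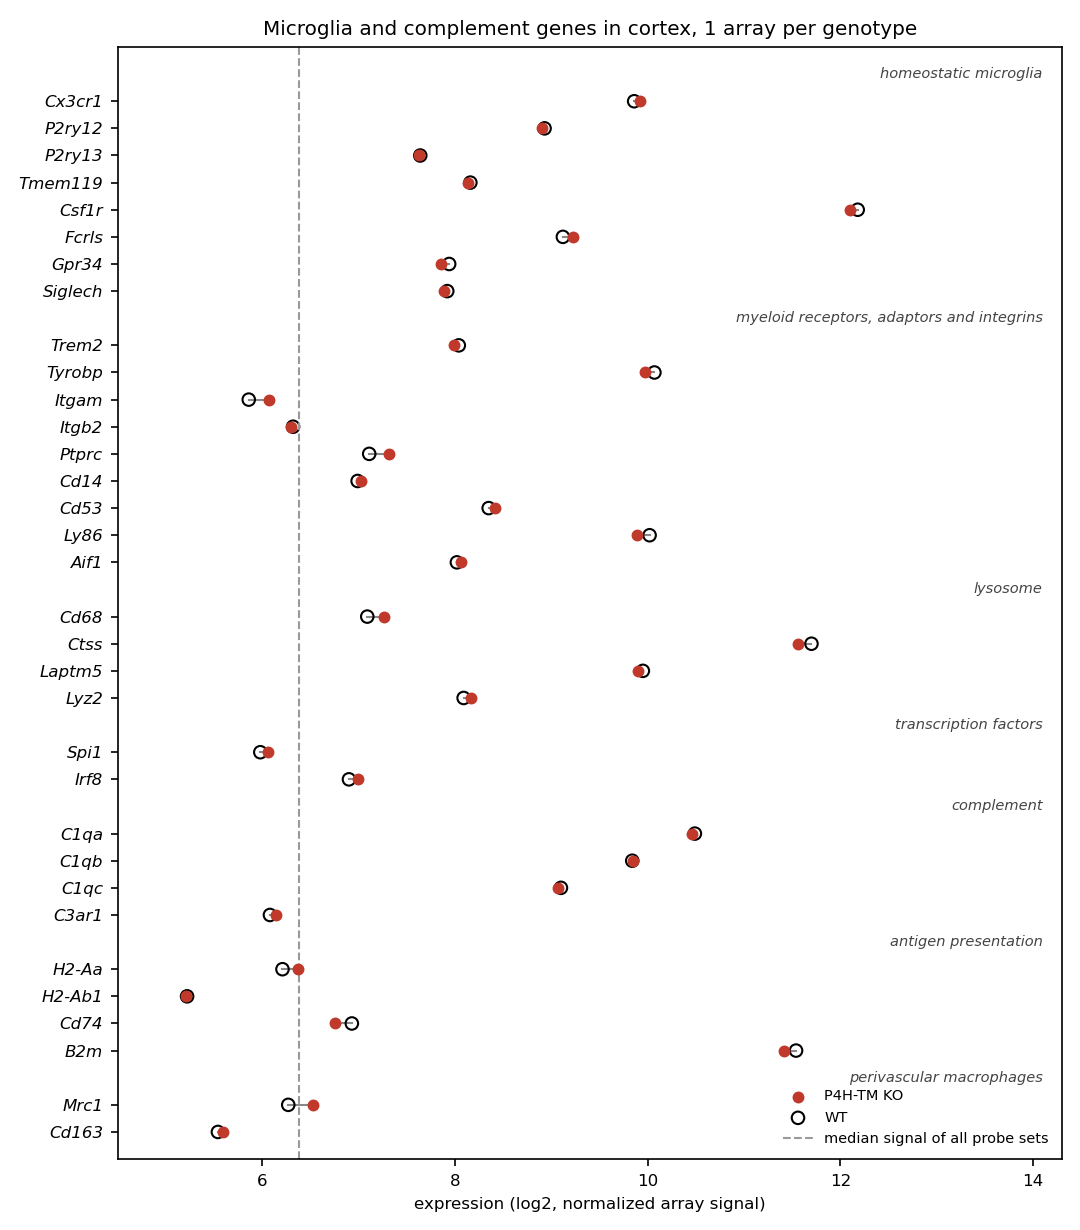
Log2 expression of the 33 measured microglia and complement genes in cortex of P4H-TM KO (red points) and WT (open circles), 1 array per genotype and hence no error bars, with the probe set of highest mean signal for each gene and a dashed line at 6.385, the median of all probe sets. The points of a gene overlap or nearly so, and the widest gap is that of Mrc1, with 6.53 in P4H-TM KO and 6.27 in WT.

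The genes of homeostatic microglia had small differences, which ran from −0.09 to 0.11 with a median of −0.025. Lower in P4H-TM KO were 6 of 8, where 49.0% of all genes were lower. Cx3cr1, the receptor of the neuronal chemokine fractalkine, had 9.92 in P4H-TM KO and 9.86 in WT. It lies on chromosome 9, as P4htm does, with 128 protein-coding genes between them. The purinergic receptor gene P2ry12, through which microglial processes are drawn to ADP, had 8.90 in P4H-TM KO and 8.93 in WT. P2ry13, its neighbour on chromosome 3, had 7.63 in P4H-TM KO and 7.64 in WT. These receptor genes therefore had nearly the same signal on both arrays.

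Tmem119, a membrane protein used to tell microglia from other macrophages, had 8.14 in P4H-TM KO and 8.16 in WT. Csf1r, the receptor on which microglial survival rests, had 12.10 in P4H-TM KO and 12.18 in WT. Its other probe sets differed by −0.02 and 0.07, so the sign of its difference depends on the probe set. Siglech, a sialic acid binding lectin, had 7.89 in P4H-TM KO and 7.92 in WT. The widest differences of the group belonged to Fcrls, an Fc receptor-like gene, with 9.23 in P4H-TM KO and 9.12 in WT, and to the receptor gene Gpr34, with 7.85 in P4H-TM KO and 7.94 in WT. These were in opposite directions. Both were within the spread of 0.147 between probe sets, and that of Fcrls exceeded the 0.101 of bright probe sets.

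Receptors, adaptors and integrins of the wider myeloid lineage had a median of 0.03, with 5 of 9 higher, and of −0.02 with the probe sets of a gene averaged. Trem2, a lipid-sensing receptor, had 7.99 in P4H-TM KO and 8.04 in WT, and its dimmer probe set also differed by −0.05. Tyrobp, the adaptor that carries the signal of TREM2, had 9.97 in P4H-TM KO and 10.07 in WT. Receptor and adaptor were thus lower on every probe set, by at most 0.10. Itgam and Itgb2 encode the chains of complement receptor 3, which binds cleaved C3. Itgam had 6.07 in P4H-TM KO and 5.86 in WT, whereas Itgb2 had 6.30 in P4H-TM KO and 6.32 in WT, so the chains of this receptor did not share a direction. Both had a single probe set below the median signal.

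Ptprc encodes CD45, a phosphatase of all leukocytes, and had 7.32 in P4H-TM KO and 7.11 in WT. Its other probe set, far dimmer, differed by 0.31, and averaged over both the difference was 0.26. Cd53, a tetraspanin of leukocytes, had 8.42 in P4H-TM KO and 8.35 in WT, with −0.17 on its dimmer probe set. Ly86, which encodes MD-1, a partner of the receptor RP105, had 9.89 in P4H-TM KO and 10.02 in WT. Cd14, the co-receptor for lipopolysaccharide, and Aif1, which encodes the microglial stain IBA1, had 7.02 and 8.06 in P4H-TM KO and 6.99 and 8.02 in WT. Of these genes Ptprc exceeded the spread of 0.147 between probe sets, and Ly86 the 0.101 of bright probe sets only.

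Lysosomal genes were divided in direction, with a median of 0.015. Cd68, a lysosomal glycoprotein that increases in phagocytes, had 7.26 in P4H-TM KO and 7.09 in WT. Ctss, the cathepsin that trims the invariant chain from MHC class II, had 11.56 in P4H-TM KO and 11.70 in WT. Cd68 and Ctss have a single probe set each, so their opposite signs could not be set against a further probe set of the same gene. Laptm5, a lysosomal membrane protein, had 9.90 in P4H-TM KO and 9.95 in WT, and its 5 probe sets ranged from −0.13 to 0.03. Lyz2, the lysozyme of macrophages, had 8.17 in P4H-TM KO and 8.09 in WT.

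The transcription factor genes were slightly higher. Spi1, which encodes PU.1, had 6.06 in P4H-TM KO and 5.98 in WT on a dim probe set. Irf8, a partner of PU.1, had 6.99 in P4H-TM KO and 6.90 in WT, but −0.01 on its other probe set. Both differences were below the spread between probe sets.

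Complement was represented by 4 genes, with a median difference of −0.01 on their brightest probe sets. C1qa, C1qb and C1qc encode the chains of C1q and are direct neighbours on chromosome 4. C1qa had 10.46 in P4H-TM KO and 10.49 in WT. C1qb had 9.85 in P4H-TM KO and 9.84 in WT. C1qc had 9.07 in P4H-TM KO and 9.10 in WT. On these probe sets the genes of C1q thus differed by at most 0.03. However, other probe sets of C1qb gave lower values, with 9.09 in P4H-TM KO and 9.23 in WT on one and 9.65 in P4H-TM KO and 9.89 in WT on another, differences of −0.14 and −0.24. Both of these carry an ID of the kind that can match other transcripts, while the brightest does not. The values given for Trem2, Aif1, Laptm5, H2-Aa and H2-Ab1 also come from probe sets with such an ID. Aif1 and H2-Aa had no probe set of another kind.

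C3ar1, the receptor of the fragment C3a, had 6.14 in P4H-TM KO and 6.08 in WT on its brightest probe set, which was below the median of all probe sets. Its other probe sets, dimmer still, differed by −0.33 and −0.08. When each gene's probe sets were averaged, the complement genes had a median of −0.0733 and all 4 were lower in P4H-TM KO, against 2 of 4 on the brightest probe sets. C1qb and C3ar1 account for this change, as C1qa and C1qc have 1 probe set each.

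The stretch around a gene's start was looked at for letters that PU.1 can bind, because Spi1 and many of its known targets in myeloid cells are among the genes measured. RefSeq promoter windows (GRCm38.p6), from 250 bases before to 50 bases after the start, matched 24 of the 35 genes. Not searched for want of a window were Tmem119, Csf1r, Gpr34, Tyrobp, Itgb2, Cd14, Spi1, C1qa, C4b, H2-Ab1 and Cd74. The letters GAGGAAGT on either strand lay in those of Cd53, Ctss and C1qc, or 12.5% of the 24, and in those of 3.69% of all genes with a window. The match lay before the start in C1qc, and at or after it in Cd53 and Ctss. Their core GAGGAA, which lies within the longer motif, was found anywhere in the window in 14 of the 24, or 58.3%, and in 31.3% of all genes. The sequences below show these letters in capitals before C1qc and C1qb, on the strand of the gene. For C1qc the capitals are the reverse complement of GAGGAAGT and begin 195 bases before the start, and for C1qb they are the core and begin 30 bases before it.
C1qc, chr4:136893082-136893129, minus strand: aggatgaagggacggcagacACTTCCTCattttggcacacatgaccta
C1qb, chr4:136886205-136886250, minus strand: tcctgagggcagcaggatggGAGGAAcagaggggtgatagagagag
A match of letters is no measure of binding, and no binding data were analysed here.

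Antigen presentation had the lowest median of the larger groups, −0.065. Of its 4 genes, 3 were lower in P4H-TM KO, where 49.0% of all genes were lower. B2m, the light chain of MHC class I, had 11.42 in P4H-TM KO and 11.54 in WT. Its other probe set had 11.25 in P4H-TM KO and 11.37 in WT, the same difference of −0.12. Cd74, the invariant chain of MHC class II, had 6.75 in P4H-TM KO and 6.93 in WT on its single probe set. B2m and Cd74 were thus the antigen presentation genes with the clearer signal, and both were lower by less than 1.2-fold.

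H2-Aa and H2-Ab1, neighbouring genes on chromosome 17, encode the alpha and beta chains of a class II molecule. H2-Aa had 6.37 in P4H-TM KO and 6.21 in WT, but its 4 probe sets ranged from −0.07 to 0.35. H2-Ab1 had 5.21 in P4H-TM KO and 5.22 in WT, and its 3 probe sets lay between −0.01 and 0.05. Both chains were below the median signal on each array, and the probe sets of H2-Aa did not share a direction. The Y box, a CCAAT element that class II genes carry close to their start, was searched as CTGATTGG on both strands and lay in the windows of H2-Aa and Irf8, or 8.33% of the 24, and in those of 4.70% of all genes. It is shown in capitals on the strand of H2-Aa, where it begins 51 bases before the start.
H2-Aa, chr17:34287847-34287894, minus strand: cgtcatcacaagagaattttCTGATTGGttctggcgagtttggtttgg

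Setting the groups side by side, the medians were −0.025 for homeostatic microglia, −0.01 for complement and −0.065 for antigen presentation. On the brightest probe sets they were at most 0.055 apart, and no test of this comparison is possible on 1 array per genotype. Complement was lowest, at −0.0733, when probe sets were averaged, with −0.0467 for antigen presentation and −0.015 for homeostatic microglia. Under the other settings tried antigen presentation stayed lowest. It had −0.15 with the signal filter, over 2 genes, against −0.025 for homeostatic microglia and −0.03 for complement. With the intensity trend removed it had −0.0417, against −0.0324 and −0.0162.

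Mrc1 and Cd163 encode scavenger receptors of macrophages at the vessels and borders of the brain. Mrc1, the mannose receptor, had 6.53 in P4H-TM KO and 6.27 in WT, the largest difference of the 33 genes, on its single probe set. With a mean of 6.40 it was barely bright, and its WT value was below the median signal of 6.385. Cd163, which takes up haemoglobin bound to haptoglobin, had 5.59 in P4H-TM KO and 5.54 in WT. A separate list of 13 markers of border macrophages had a median of 0.03, with 7 higher and 6 lower, and a median level of 6.06 in P4H-TM KO and 6.17 in WT. Of these Stab1, Pf4, Maf and F13a1 were bright and had differences of 0.05, 0.03, 0.08 and −0.07, each smaller than that of Mrc1. Other probe sets of Maf ranged from −0.36 to 0.13.

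**Figure D2:**
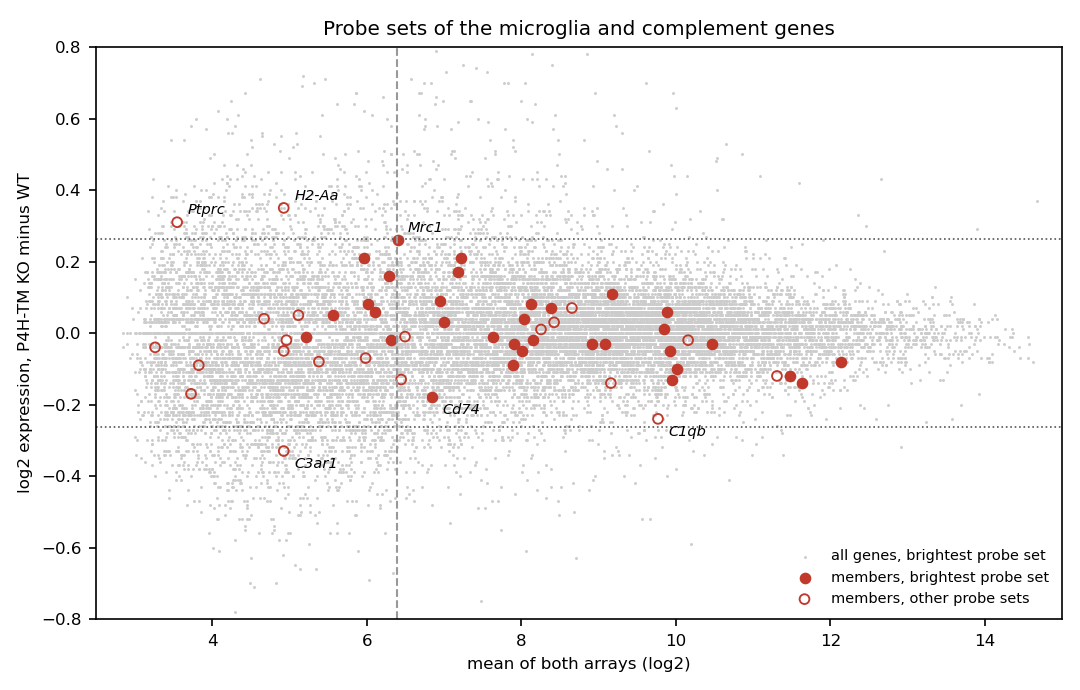
Difference of log2 expression, P4H-TM KO minus WT, against the mean of both arrays, for every probe set of the 33 genes (red, filled for the brightest and open for the others) and for the brightest probe set of all genes (grey), with dotted lines at 1.2-fold and a dashed line at the median signal. All filled points lie inside the dotted lines, and the 3 open points outside them, of Ptprc, H2-Aa and C3ar1, are below the median signal; 63 genes beyond the range of the plot are not drawn.

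Of the 33 genes, 21 had a single probe set and 12 had 2 or more, which made 54 probe sets. For 9 of the 12 the probe sets did not share a sign. Trem2, B2m and Ptprc were the genes whose probe sets did. Over all 54 the differences ranged from −0.33 to 0.35, and 3 reached 1.2-fold, none of them bright.

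Other genes of these pathways, from lists of general knowledge chosen with earlier results of these data known, showed a wider spread. More of them were dim, 14 of 37 microglia, 14 of 29 complement and 7 of 25 antigen presentation genes, against 7 of the 33. The lowest difference of each of these lists was that of a dim gene. Over all genes 29.9% were 1.1-fold apart, against 20.7% of bright ones. Of 37 further microglia genes, 26 were lower and 11 higher in P4H-TM KO, or 70.3% and 29.7%, against 49.0% and 46.0% over all genes. Their median was −0.07 and lay between −0.08 and −0.0479 under the other settings tried. At least 1.2-fold lower were 3 of them and higher 1, where the shares over all genes were 4.91% and 4.12%. Among the bright ones, Inpp5d, which encodes the phosphatase SHIP1, had 7.12 in P4H-TM KO and 7.41 in WT, and −0.05 on its other probe set. Entpd1, the ectonucleotidase that turns over ATP, had 6.30 in P4H-TM KO and 6.58 in WT, with 0.21 on another probe set. Its P4H-TM KO value was below the median signal. The highest of the bright ones was Ltc4s, the leukotriene C4 synthase, with 7.53 in P4H-TM KO and 7.27 in WT on its single probe set. It was followed by the fructose transporter gene Slc2a5, with 6.99 in P4H-TM KO and 6.90 in WT. The probe sets of Inpp5d shared a sign and those of Entpd1 did not.

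Of 29 further complement genes, 14 were higher and 13 lower, with a median of 0. The 15 bright ones had a median of 0.07, with 9 higher and 4 lower. At least 1.2-fold higher were 4 of the 29 and lower 3, where the shares over all genes were 4.12% and 4.91%. The highest of the bright ones were Serping1 and Cd59a. Cd55 and Susd4, inhibitor genes picked out after their values were seen, had 0 and −0.02 on their brightest probe sets. On other probe sets Cd55 reached 0.41 and Susd4 −0.09. Serping1, the C1 inhibitor, had 8.06 in P4H-TM KO and 7.62 in WT. Cd59a, which blocks the membrane attack complex, had 8.69 in P4H-TM KO and 8.32 in WT, and 0.75 on its dimmer probe set. The lectin pathway protease gene Masp1 had 7.25 in P4H-TM KO and 7.45 in WT, with differences up to 0.26 on other probe sets. The inhibitor gene Csmd1 had 7.10 in P4H-TM KO and 7.14 in WT, and its 4 probe sets ranged from −0.29 to 0.13. Clu, with 13.77 in P4H-TM KO and 13.81 in WT, had the same difference of −0.04. Hc, which encodes C5, was the only one past 1.5-fold, with 4.96 in P4H-TM KO and 5.55 in WT, and was dim on both arrays.

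Of 25 further antigen presentation genes, 14 were lower and 11 higher, with a median of −0.03, and of 0.01 over the 18 bright ones. The immunoproteasome genes Psmb8 and Psmb9 had 7.36 and 6.41 in P4H-TM KO and 7.53 and 6.57 in WT, the lowest of the bright ones. Calr and Pdia3, chaperones of the endoplasmic reticulum that also load MHC class I, were the highest, with 12.52 and 11.61 in P4H-TM KO and 12.19 and 11.37 in WT. Calr was higher on all its probe sets, whereas Pdia3 had −0.12 on its other one.

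Markers of some other tissues in the same pools differed by more. These lists were chosen with earlier results of these data known, so their differences are no independent finding. Over all genes 46.0% were higher in P4H-TM KO. The choroid plexus markers had a median difference of 1.605, with all 12 measured higher in P4H-TM KO. Their median levels were 8.985 in P4H-TM KO and 7.305 in WT. The meninges markers had one of 0.41, with 13 of 15 higher and median levels of 7.94 in P4H-TM KO and 7.51 in WT. Median differences were −0.22 for oligodendrocyte markers, −0.045 for astrocyte markers, −0.025 for neuron markers and 0.08 for endothelial markers. Blood leukocyte markers had −0.13 over 15 genes, none of them bright, with median levels of 5.40 in P4H-TM KO and 5.31 in WT. S100a8, S100a9 and Ngp, genes of neutrophils, were past 1.5-fold lower, by −1.26, −0.97 and −0.61, where 0.148% of all genes were. In WT S100a8 had 6.95 and S100a9 6.85, above the median signal, and in P4H-TM KO 5.69 and 5.88, below it. Whether any of these tissues contributes to the values of Mrc1, Serping1, Cd59a, Ptprc or Itgam was not tested.

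**Figure D3:**
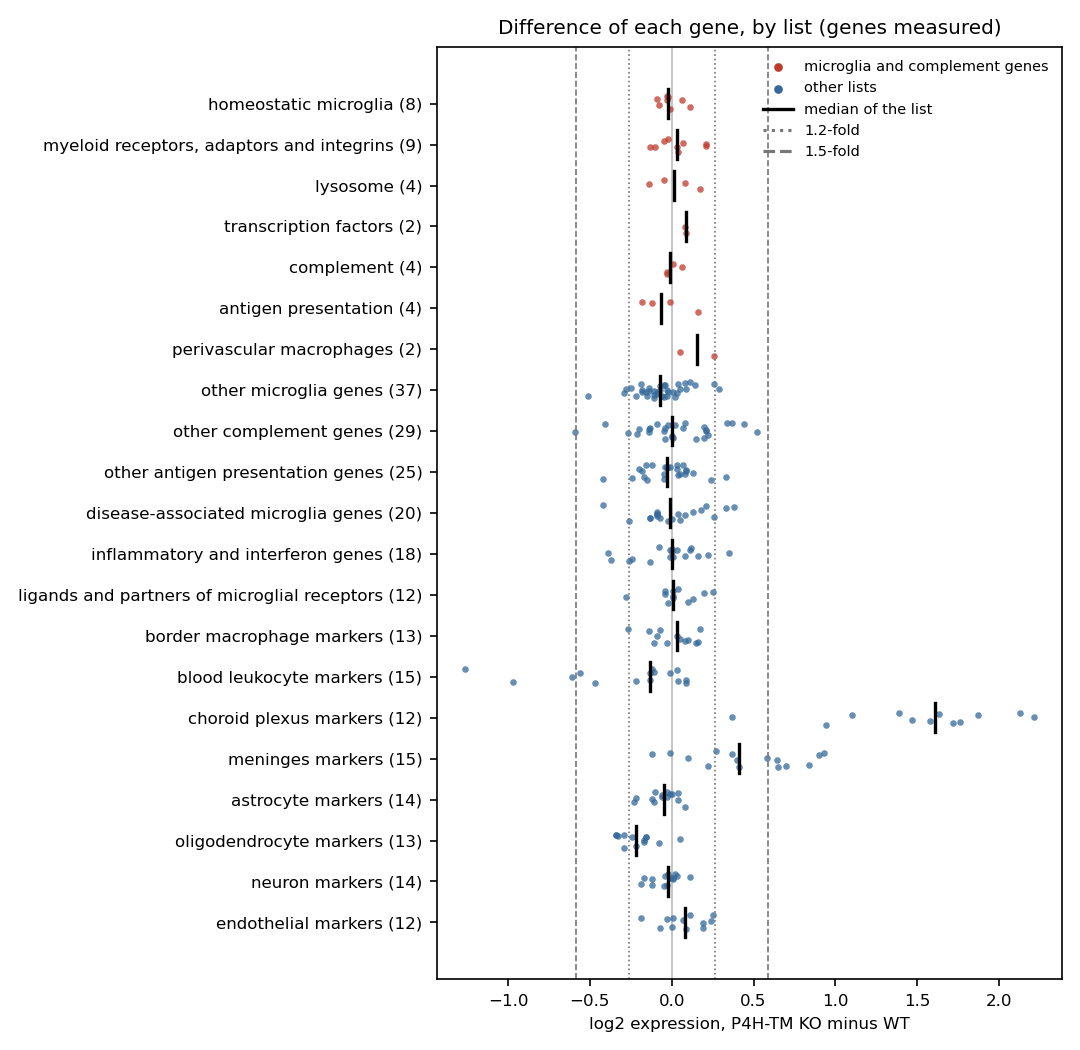
Difference of log2 expression, P4H-TM KO minus WT, for each measured gene of the microglia and complement groups (red) and of other lists (blue), with the number of genes in brackets, a black bar at the median, dotted lines at 1.2-fold and dashed lines at 1.5-fold; with 1 array for each genotype no error can be drawn. The red points lie between −0.18 and 0.26, while the choroid plexus markers, a list chosen with earlier results of these data known, have a median of 1.605.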

How the data were processed

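Cortical RNA of P4H-TM KO and WT mice was measured on 2 Affymetrix mouse genome arrays, 1 per genotype. The authors read the scans in the GeneChip Operating System, with normalization in GenePattern. RMA is named in the submitters' processing notes, and versions are not given in the sources used here. The deposited table holds log2 expression to 2 decimals, from 2.69 to 14.91, with medians of 6.39 for P4H-TM KO and 6.38 for WT. RMA tends to compress the differences of dim genes, and the number of arrays limits the precision. Even so, dim genes were not less spread on these arrays. The middle 95% of differences ran from −0.33 to 0.33 over all genes and from −0.23 to 0.28 over bright ones.

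Of 45101 probe sets, 34945 carried 1 symbol in the platform annotation and gave 18193 genes. Symbols of the 33 measured genes matched the RefSeq table (GRCm38.p6) by gene ID. No filter was applied to the medians and counts unless stated, and no test was run. The genes and lists were chosen with earlier results of these data known. Named outside the listed genes were, per other list, those past 1.5-fold and the 2 highest and 2 lowest bright ones, with the choroid plexus, meninges, glia, neuron and endothelial markers given as lists only. Cd37, Cfb, Cd55, Susd4 and the ligands Cx3cl1 and Csf1 were named after their values were seen. Motifs were picked from general knowledge. Alternatives were averaged probe sets, probe sets without those whose ID ends in x_at or s_at, centred arrays, removal of the intensity trend (loess, span 0.3), a signal filter and thresholds of 1.2-fold and 2-fold. The 1.1-fold threshold was added after the data were seen. Scripts were tested on simulated data. Figures were drawn with matplotlib 3.10.9, and values computed in Python 3.11.15 with statsmodels 0.14.6, pandas 2.3.3 and numpy 2.4.6.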

Additional observations from a re-analysis of the deposited data

How the results depend on the processing

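No member of the microglia and complement list was 1.5-fold higher or lower under averaged probe sets, centred arrays, a removed intensity trend or the signal filter. The same held for probe sets without those that can match other transcripts. On the values reported none reached 1.2-fold or 2-fold. The outcomes at 2-fold, with the filter and with centring were therefore fixed in advance and add no support. With the intensity trend removed Mrc1 had 0.2841, past 1.2-fold. At 1.1-fold, added after the data were seen, 5 were higher and 2 lower, because the threshold is smaller. The median of the members ranged from −0.025 with the signal filter to 0.0064 with the intensity trend removed, so its sign is not settled. That of homeostatic microglia ranged from −0.035 to −0.015, of complement from −0.0733 to −0.01 and of antigen presentation from −0.15, over the 2 genes left by the filter, to −0.0417. Of 130 values of single genes under alternatives, 129 stayed within 0.147 of the value reported. The exception was C3ar1, at −0.1167 with averaged probe sets. Many of these values could hardly move, so the count is no measure of robustness. Averaging leaves the 21 genes with 1 probe set as they are, and centring shifts every gene by −0.01. A sign turned for 5 genes, Itgb2, Cd53, C1qb, C3ar1 and H2-Ab1. No paired analysis was possible because each genotype has 1 array. The number of arrays limits the precision, and differences near 0 are coarse because values are rounded to 2 decimals.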

Other observations

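Ligands and partners through which other cells reach microglia were also close between the genotypes, with a median difference of 0.01 over 12 genes. In P4H-TM KO 8 were higher and 4 lower, where 46.0% of all genes were higher and 49.0% lower. Cx3cl1, the ligand of CX3CR1, had 11.57 in P4H-TM KO and 11.53 in WT. Csf1 and Il34, the ligands of the CSF1 receptor, had 8.99 and 8.33 in P4H-TM KO and 8.98 and 8.13 in WT. Nrros, which anchors latent TGF-beta on microglia, was the lowest, with 7.13 in P4H-TM KO and 7.41 in WT. Gas6 and Pros1 encode ligands of the receptor MERTK. Gas6 had 10.39 in P4H-TM KO and 10.14 in WT, the highest difference of the list, but −0.15 on its other probe set, and Pros1 had 7.40 in P4H-TM KO and 7.44 in WT.

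Genes that increase in microglia around plaques and dying cells had a median of −0.01 over 20 genes and of 0.04 over the 15 bright ones. Of the 20, 2 were at least 1.2-fold higher and 1 lower, where 4.12% of all genes were higher and 4.91% lower by that much. Lgals3, which encodes galectin-3, had 6.78 in P4H-TM KO and 6.45 in WT, and the chemokine gene Ccl6 had 6.80 in P4H-TM KO and 7.06 in WT with no difference on its other probe set. The lipoprotein lipase gene Lpl had 10.70 in P4H-TM KO and 10.83 in WT, and −0.11 on its other probe set. The metalloproteinase inhibitor gene Timp2 had 12.04 in P4H-TM KO and 11.78 in WT, and its 6 probe sets ranged from 0.17 to 0.36. Inflammatory and interferon genes had a median of 0 over 18 genes, of which 13 were dim. Ptgs2, which encodes cyclooxygenase-2 and is also induced by activity in neurons, was lower on both its probe sets, by −0.37 and −0.34. The interferon-induced genes Bst2 and Ifit3 had 7.69 and 7.24 in P4H-TM KO and 7.47 and 7.25 in WT, and Stat2, which carries the interferon signal, had 6.58 in P4H-TM KO and 6.42 in WT but −0.45 on another probe set. Cd37, a tetraspanin of leukocytes picked out after its values were seen, had 5.60 in P4H-TM KO and 6.11 in WT and −0.20 on its other probe set, and Cfb, a factor of the alternative complement pathway picked out likewise, had 5.31 in P4H-TM KO and 4.79 in WT. Both were below the median signal.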
